A study of Drosophila melanogaster with 2 samples.

Results

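The RNA exosome genes described here are 10 genes of Drosophila melanogaster that encode subunits of the RNA exosome or its nuclear helicase partner: Rrp4, Rrp40, Csl4, Ski6, Rrp42, Rrp46, Mtr3, Dis3, Rrp6 and Mtr4. They were taken by symbol from the Ensembl annotation, where all 10 were found, out of 13945 protein-coding genes on the 6 chromosome arms. They were followed through peak lists of chromatin immunoprecipitation with sequencing against sunspot (ssp) fused to enhanced green fluorescent protein (eGFP). The labels describe the antibody as one against GFP, while their antibody field names ssp. The samples were whole embryos aged 0 to 24 h of a transgenic strain with an insertion that targets ssp, as 2 biological replicates of 1 group, the ssp-eGFP embryo. Every tissue and stage of that day was pooled, no condition was varied, and a control library named in the labels is not analysed here. The labels do not say what drives the fusion. The authors' main list, drawn from the replicates together and called the combined list here, had 4948 peaks, and the lists of replicates 1 and 2 had 3606 and 3437. A second joint list, which the authors named conservative, had 4719.

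The RNA exosome degrades and trims RNA from its 3′ end in the nucleus and the cytoplasm. A ring of RNase PH-like subunits carries a cap of RNA-binding subunits and forms a channel, and RNA threads through it to the nuclease Dis3. A further nuclease, Rrp6, and the helicase Mtr4, which unwinds structured RNA, act with the nuclear form in the maturation of ribosomal RNA and the removal of faulty or short-lived transcripts. Sunspot is a chromatin protein that earlier work in Drosophila linked to Wingless signalling and endoreplication.

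ssp peaks lay at the promoters of 4 of the 10 exosome genes, the ring genes Rrp42 and Ski6, the cap gene Csl4 and the nuclease gene Dis3. A peak was counted for a gene when its summit lay within 500 bp of a transcription start of that gene. Of all protein-coding genes, 2984 of 13945 (21.4%) had such a peak. A narrower count took only genes with at least 1 candidate region of the combined ranking in that window, whether or not it passed the threshold. The shares were then 4 of 7 exosome genes and 28.8% of 10362 protein-coding genes. The combined signal at the 4 genes spanned a wide range, from 3739 at Rrp42 through 1065 at Dis3 to 136 at Csl4 and 132 at Ski6. Signal is the value that the authors' peak caller gave each peak, and it serves here only for description and for ranking inside 1 list. With 10 genes and no second group, these shares are set side by side with no test.

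In each of these promoters the exosome gene lay head to head with another protein-coding gene, so that 1 peak sat between starts that point away from each other. The intervals between the starts of Dis3 and Rrp5, Ski6 and CG16812, and Csl4 and Nup160 are shown because their whole length lies under the peaks, and the window around the Rrp46 summit because its candidate passed the threshold in the conservative list but not in the combined one. The interval of Rrp42 also lies wholly under its peak and is described only by its matches. All sequences are from RefSeq Release 6 (dm6), 5′ to 3′ in the direction of the exosome gene. Each interval thus begins next to the start of the partner gene and ends next to the start of the exosome gene. The order of the names in its label does not give the direction. The Dis3 interval is chr3R:24333317-24333432 on the plus strand and has 116 bases. The Ski6 interval is chr2L:13222430-13222586 on the minus strand, with 157 bases, and the Csl4 interval is chr2L:11123568-11123776 on the minus strand, with 209 bases. The Rrp46 window is chr3R:10412897-10412997 on the plus strand, with 101 bases. Capitals mark the core motif CGATA, the sequence TGTGAA and the box TATAAA wherever they stand on either strand, so that TATCG, for example, is CGATA on the opposite strand.
Dis3 to Rrp5: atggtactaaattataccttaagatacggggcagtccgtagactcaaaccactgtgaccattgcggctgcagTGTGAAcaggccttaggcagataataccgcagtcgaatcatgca
Ski6 to CG16812: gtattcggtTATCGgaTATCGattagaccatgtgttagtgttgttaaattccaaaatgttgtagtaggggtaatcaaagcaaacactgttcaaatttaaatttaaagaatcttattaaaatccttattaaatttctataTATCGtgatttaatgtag
Csl4 to Nup160: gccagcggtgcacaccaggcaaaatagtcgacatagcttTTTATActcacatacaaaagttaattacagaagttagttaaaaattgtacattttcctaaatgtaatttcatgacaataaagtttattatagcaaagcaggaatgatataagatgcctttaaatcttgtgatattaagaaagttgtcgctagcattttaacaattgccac
Rrp46 summit: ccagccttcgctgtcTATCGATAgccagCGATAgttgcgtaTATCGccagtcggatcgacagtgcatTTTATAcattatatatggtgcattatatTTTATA

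The Ski6 interval held 3 matches of CGATA, with 2 of them next to each other near the CG16812 end. The Dis3 interval held 1 TGTGAA, which lay across the summit, and no CGATA or TATAAA. The Csl4 interval was rich in A and T, at 31.6% GC, and held 1 TATAAA on the opposite strand. The Rrp46 window held 4 CGATA matches, 2 of them, on opposite strands, within the longer palindrome TATCGATA.

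The catalytic subunit gene Dis3 (FBgn0039183, chromosome 3R from 24333433 to 24337248, plus strand), which encodes the processive nuclease also known as Rrp44, had a signal of 629 in replicate 1 and 437 in replicate 2. Their mean was 533 ± 136 (SD, n = 2), and the combined list gave 1065. The peak ranked 209 of 3606 in replicate 1, 276 of 3437 in replicate 2 and 239 of 4948 in the combined list, so it stood in the upper part of each list. Its combined summit lay 41 bp upstream of the Dis3 start and 76 bp upstream of the start of Rrp5, a gene for a ribosomal RNA processing factor, with 117 bp between the starts. In replicate 1 the summit was at 38 bp and in replicate 2 at 37 bp upstream of Dis3, so the replicates placed it within 1 bp of each other. The peak, from 24333211 to 24333553, was 343 bp wide, and 23.2% of the 2338 combined peaks within 500 bp of a protein-coding start were narrower.

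The other nuclease gene, Rrp6 (FBgn0038269, chromosome 3R from 14882498 to 14886246, minus strand), encodes the distributive nuclear exonuclease. Its promoter carried only weak signal, and the lists disagreed about it. The best combined candidate had a signal of 71.9 and lay 122 bp downstream of the nearest Rrp6 start, in the 5′ UTR. Its irreproducible discovery rate (IDR), the expected share of irreproducible regions among those ranked at least as high, was 0.0984 in the combined ranking, above the threshold of 0.01. The conservative ranking gave the same interval and signal an IDR of 0.00588, so that list includes it. Replicate 1 had 2 peaks at this promoter, with signals of 42.4 and 28.3, while the best candidate of replicate 2 had a signal of 31.9 and an IDR of 0.252 and did not pass. Rrp6 has 2 annotated starts. The weaker replicate 1 summit lay 75 bp upstream of the start at 14886246, between the genes. The stronger one, at 14886121, lay 120 bp upstream of the other start, and the best replicate 2 summit lay 83 bp upstream of it. The combined summit, at 14886124, also lay upstream of that other start, at nearly the same distance from both starts. The start of CG33331 lies on the other strand, 210 bp from the Rrp6 start at 14886246, and CG33332 starts at the same base. No combined peak lay nearer to Rrp6 than 7797 bp, where a peak with a signal of 275 sat 89 bp upstream of Dph2, a gene for a diphthamide synthesis enzyme.

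Among the ring genes, Rrp42 (FBgn0034065, chromosome 2R from 16014908 to 16016050, plus strand) had the strongest peak of all 10 exosome genes in every list. The signal was 2038.5 in replicate 1 and 1718 in replicate 2, with a mean of 1878 ± 227 (SD, n = 2), and the combined signal was 3739. It ranked 9 in replicate 1, 21 in replicate 2 and 13 in the combined list, and 5 of 947 combined peaks on its own arm. The combined summit lay 41 bp upstream of Rrp42 and 80 bp upstream of Prosbeta1, a gene for a catalytic subunit of the proteasome core, with 121 bp between the starts. Replicate summits were at 48 and 44 bp upstream of Rrp42. Rrp42 and Dis3, the exosome genes with the strongest peaks, thus had the same summit distance, and their partner starts were the closest of any exosome gene.

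Ski6 (FBgn0032487, chromosome 2L from 13221397 to 13222429, minus strand), the fly gene for the ring subunit Rrp41, had a peak that rested mostly on replicate 2. There the signal was 101, with the summit 37 bp upstream of the start. In replicate 1 the best candidate had a signal of 38.7 and an IDR of 0.768 and did not pass the threshold, although its summit, 34 bp upstream, lay 3 bp from that of replicate 2. The combined peak, from 13222310 to 13222725, had a signal of 132, and its summit was 89 bp upstream of Ski6 and 69 bp upstream of CG16812, nearer to the middle of the interval than in either replicate. In the conservative ranking the same interval had an IDR of 0.0139 and missed the threshold.

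Rrp46 (FBgn0037815, chromosome 3R from 10413301 to 10414242, plus strand) had no combined peak. Its candidate had a signal of 74.1 with an IDR of 0.786 in the combined ranking and 0.00710 in the conservative one, so it is a peak only in the conservative list. In replicate 1 the signal was 42.6 with an IDR of 0.0459, and in replicate 2 it was 30.7 with an IDR of 0.231, so neither replicate list included it. The combined summit lay 354 bp upstream of Rrp46 but 78 bp upstream of Irp-1B, a gene for an iron regulatory protein of the aconitase family, whose start is 432 bp away. Mtr3 (FBgn0036916, chromosome 3L from 19912405 to 19913715, minus strand), the remaining ring gene, had no candidate within 500 bp in any list. The nearest combined peak, with a signal of 131, was 1283 bp away and 53 bp upstream of Rpn1, which encodes a subunit of the regulatory particle of the proteasome.

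Of the cap genes, Csl4 alone had a peak. Csl4 (FBgn0032346, chromosome 2L from 11122574 to 11123567, minus strand) had a signal of 61.8 in replicate 1 and 71.6 in replicate 2, with a mean of 66.7 ± 6.88 (SD, n = 2), and 136 in the combined list. The combined signal was near the median of that list, 132.934, and the peak passed the threshold in all 4 thresholded lists. It ranked 2417 of 4948 in the combined list, 2938 of 3606 in replicate 1 and 2098 of 3437 in replicate 2. In both replicates its signal was below the list median, which was 96.8 in replicate 1 and 85.9 in replicate 2. The combined summit lay 150 bp upstream of Csl4 and 60 bp upstream of Nup160, a gene for a scaffold nucleoporin, with 210 bp between the starts. The replicate summits were nearer the middle, at 106 and 122 bp upstream of Csl4.

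Rrp4 and Rrp40 encode the other cap subunits, both with S1 and KH domains. Rrp4 (FBgn0034879, chromosome 2R from 23555018 to 23556217, minus strand) had a combined candidate with a signal of 39.4 and an IDR of 0.432, in its coding exon 440 bp downstream of the start. That position is just inside the window of 500 bp. A candidate with a signal of 30.8 lay at the same base in replicate 1, and replicate 2 had none within the window. The integrin gene ItgaPS5 starts 455 bp from Rrp4 on the other strand. The nearest combined peak, with a signal of 152, was 1604 bp from the Rrp4 start and 99 bp downstream of a start of pita, a gene for a zinc-finger insulator protein. Rrp40 (FBgn0260648, chromosome 2L from 1728732 to 1729762, plus strand) had no candidate in the window, and its nearest combined peak lay outside it, at 786 bp. That peak had a signal of 507 and sat 229 bp upstream of a start of Eno, the gene for the glycolytic enzyme enolase, another start of which lies 269 bp from that of Rrp40.

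The helicase gene Mtr4 (FBgn0001986, chromosome 2L from 15752263 to 15755900, plus strand) had no combined candidate in the window. Replicate 1 had 1 candidate, in a coding exon 312 bp downstream of the start, with a signal of 24.1 and an IDR of 0.920. The conservative ranking had 1 at 295 bp downstream, with a signal of 32.1 and an IDR of 0.762, and neither passed the threshold. The nearest combined peak, with a signal of 95.9, was 1063 bp away and 122 bp upstream of ND-B17, which encodes a subunit of respiratory complex I.

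**Figure D1:**
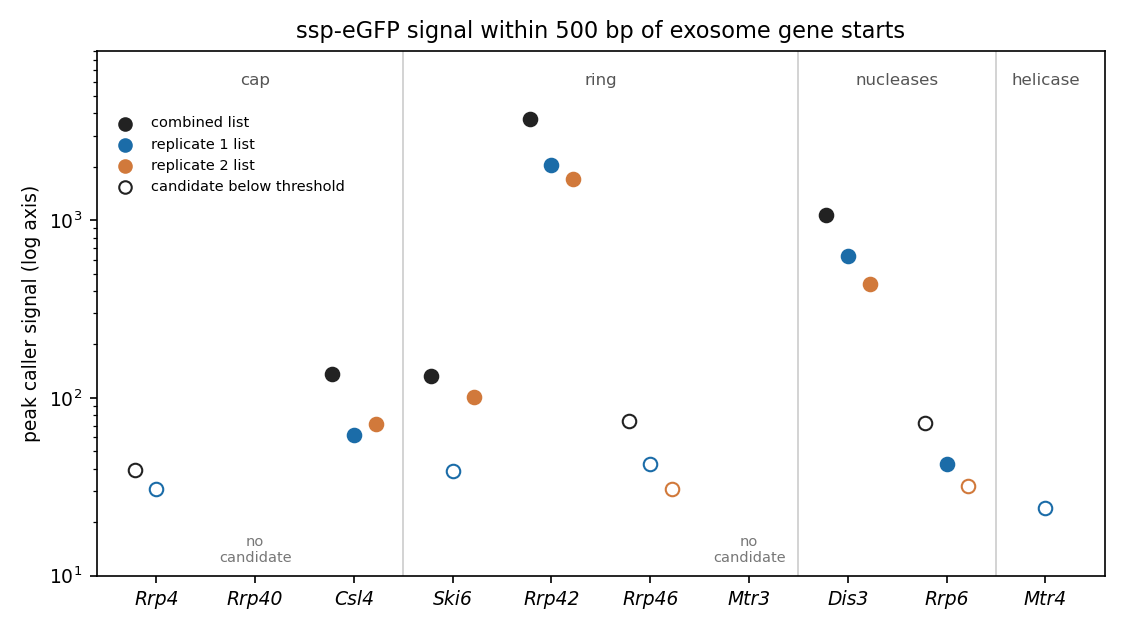
Signal of the strongest peak (filled) or candidate below the threshold (open) within 500 bp of a start of each exosome gene, on a log axis, in the combined list, replicate 1 and replicate 2. Rrp42 and Dis3 stand at 437 or higher in every list, Csl4 and Ski6 lie near the combined median of 132.934, and the other 6 genes have a candidate below the threshold, a weak replicate 1 peak (Rrp6) or no candidate.

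The plot of signals by gene shows the gap in level between Rrp42 and Dis3 and the other members. Among the 2984 protein-coding genes with a combined peak, ordered by the signal of their strongest peak, Rrp42 ranked 14 and Dis3 ranked 277. Their positions were above 99.5% and 90.68% of those genes. Csl4 ranked 1951 and Ski6 ranked 1993, above 34.58% and 33.18% of them. The exosome genes therefore did not share a level of signal. Subunits of the same ring ranged from the top of the distribution (Rrp42) to no candidate at all (Mtr3).

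**Figure D2:**
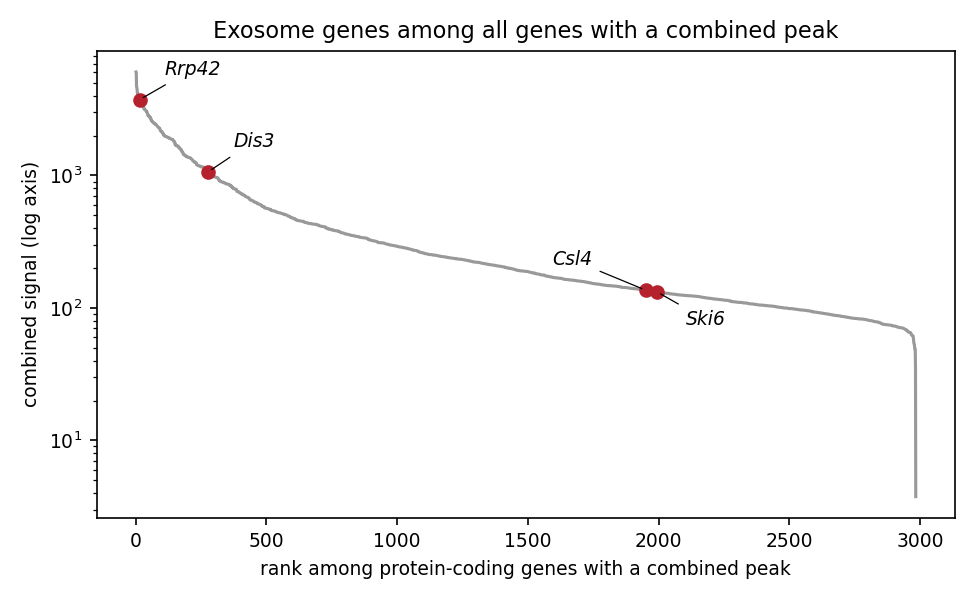
Combined signal of the strongest peak within 500 bp of a start (log axis) for the 2984 protein-coding genes with such a peak (grey line, ordered by signal), with the 4 exosome genes as red points. Rrp42 and Dis3 lie on the steep part at the left, and Csl4 and Ski6 lie side by side in the lower part.

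Between lists the exosome genes with a peak changed at the weak end. Csl4, Rrp42 and Dis3 had a peak in all 4 thresholded lists, as did 2079 of the protein-coding genes (14.9%). At least 1 list had a peak for 6 exosome genes, the same 3 with Ski6, Rrp46 and Rrp6, against 3260 protein-coding genes (23.4%). The conservative list named 5 exosome genes (Csl4, Rrp42, Rrp46, Dis3 and Rrp6) against 20.9% of protein-coding genes. Replicate 1 named 4 (Csl4, Rrp42, Dis3 and Rrp6) against 18.0%, and replicate 2 named 4 (Csl4, Ski6, Rrp42 and Dis3) against 17.3%. Ski6, Rrp46 and Rrp6 kept the same interval and signal in the combined and conservative rankings and differed only in IDR.

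Among the exosome genes with a signal in both replicates, the replicate signals differed most at Ski6. The log2 ratio of replicate 2 to replicate 1 signal was -0.25 at Rrp42, -0.53 at Dis3 and 0.21 at Csl4. Over the 2106 genes with a peak in both replicate lists its median was -0.19, with an SD of 0.33 between genes. The Rrp42 and Dis3 ratios were within or about 1 SD of that median, and the Csl4 ratio was a little more than 1 SD above it. At Ski6 the ratio, taken from candidates, was 1.38, and only 14 of 2946 genes with a combined peak (0.475%) had a higher one, against a median of -0.20 and an SD of 0.46. The weak candidates at Rrp46 and Rrp6 had ratios of -0.47 and -0.41, against a median of -0.24 and an SD of 0.72 over 7285 genes with a candidate in both replicates. Any difference in scale between the replicate lists is included in these ratios, and 2 samples of 1 group allow no test.

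**Figure D3:**
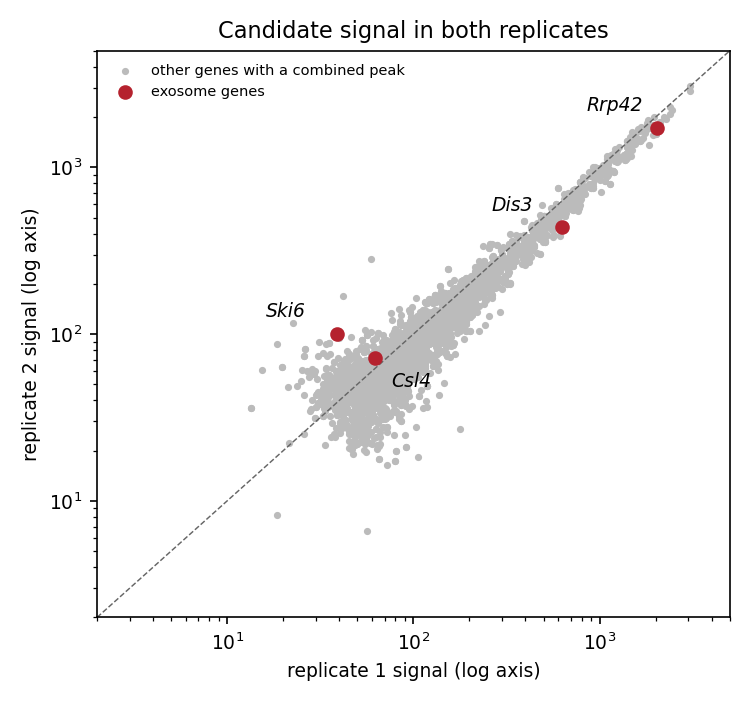
Signal of the strongest candidate within 500 bp of a start in replicate 1 (x) and replicate 2 (y), both on log axes, for protein-coding genes with a combined peak (grey) and the 4 exosome genes among them (red); the dashed line marks equal values. Rrp42, Dis3 and Csl4 lie within the cloud of genes and Ski6 lies at its upper edge.

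Combined signals were close to the sum of the replicate signals, and so they exceed either one. The ratio of the combined signal to that sum was 0.9954 at Rrp42, 0.9994 at Dis3, 1.02 at Csl4 and 0.9485 at Ski6. Its median over 2946 genes was 0.9985, with the central 95% of genes between 0.8984 and 1.087. A combined signal is therefore not to be read against a replicate signal as a level.

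Most exosome genes stood in head-to-head promoters, and the 4 combined peaks were all in such promoters. A gene was called head to head when another protein-coding gene on the opposite strand started within 500 bp upstream and ran the other way. This applied to 8 of the 10 exosome genes, all but Mtr3 and Mtr4, and to 3815 of 13945 protein-coding genes (27.4%). Among the head-to-head genes, 4 of 8 exosome genes had a combined peak, against 1587 of 3815 protein-coding genes (41.6%). Of the genes without such a partner, 0 of 2 exosome genes had one, against 1397 of 10130 (13.8%). The split was made after the partners of the 4 peaks had been seen. Within the head-to-head class the exosome share was close to the background share.

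The exosome genes were also set beside the background by the spacing of the starts. With starts 1 to 150 bp apart, both exosome genes (Rrp42 and Dis3) had a combined peak, against 33.5% of 1232 protein-coding genes. From 151 to 250 bp, 2 of 3 exosome genes (Csl4 and Ski6, not Rrp6) had one, against 40.2% of 748. From 251 to 500 bp, 0 of 3 exosome genes (Rrp4, Rrp40 and Rrp46) had one, against 47.6% of 1835. In the conservative list the widest bin had 1 of 3 exosome genes (Rrp46), against 46.3%. The background share was higher at wider spacing. The bins were set after the values were seen, and with 2 or 3 exosome genes in each, whether the exosome genes differ from the background in this was not tested.

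**Figure D4:**
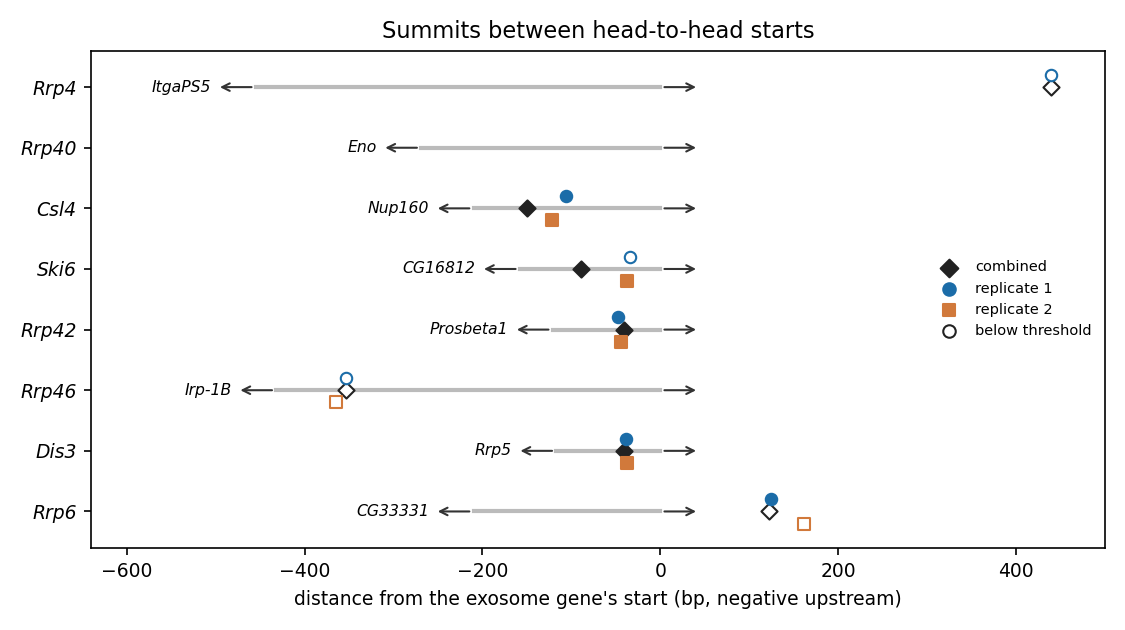
Summits of the strongest combined (diamond), replicate 1 (circle) and replicate 2 (square) peak or candidate, as distance in bp from the start of each of the 8 head-to-head exosome genes (0, arrow to the right) with the start of the partner at the left end of the grey bar; open symbols are below the threshold. At Rrp42, Dis3, Csl4 and Ski6 every summit lies between the starts, at Rrp46 the summits lie near Irp-1B, and at Rrp4 and Rrp6 they lie downstream of the start shown. Rrp6 has a further start that is not shown, and its plotted combined and replicate summits lie upstream of that one.

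A peak in such a promoter belongs to both genes by distance, and the summit position decides which is nearer. The Rrp42 and Dis3 summits were nearer to the exosome gene than to Prosbeta1 and Rrp5, whereas those of Csl4 and Ski6 were nearer to Nup160 and CG16812 in the combined list. When each peak was given only to the protein-coding gene with the nearest start, 2 exosome genes, Rrp42 and Dis3, kept a peak, against 21.3% of genes with a candidate. In replicate 2 the Ski6 summit was nearer to Ski6, at 37 bp against 121 bp for CG16812. All 4 summits were upstream of the exosome gene and of its partner. Over the 2338 combined peaks near a protein-coding start the median position was 92 bp upstream of the nearest start and 84.3% were upstream, and 753 of them (32.2%) lay upstream of starts on both strands. The median signal of these 753 was 189, against 161 for the other peaks near a start.

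Short sequence patterns were counted within 50 bp of each summit on both strands, and their shares are given for combined peaks near a protein-coding start and for candidates near one that overlapped no thresholded peak. These windows differ in base composition, at a mean GC content of 35.1% for the 2338 peaks and 47.8% for the 12595 failing candidates, and the shares were not adjusted for this. The core CGATA, bound by the insulator protein BEAF-32, was found in 26.5% of the peaks and 14.1% of the failing candidates, and TATCGATA, the DNA replication-related element bound by DREF, in 5.0% and 1.20%. Every TATCGATA also counts as a CGATA on each strand.

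Of the 4 exosome peaks, only Rrp42 had CGATA within 50 bp, with 3 matches that included TATCGATA, the first starting 34 bp past the summit toward the gene. Within 100 bp, CGATA was also found at Dis3 (1 match) and Ski6 (4 matches), so 3 of the 4 peaks had it, against 44.4% of all combined peaks near a start. The conservative-only candidate at Rrp46 had 4 CGATA matches within 50 bp, including TATCGATA, as the capitals in its sequence above show. A single CGATA lay within 50 bp of the weak candidates at Rrp6 and Rrp4. These patterns thus occurred at the strongest exosome peak and at regions that missed the combined threshold alike.

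Dis3, with 57.4% GC within 50 bp of its summit, had none of the 12 patterns listed at the start in that window. The 6-base sequence TGTGAA began 3 bp before its summit, and it was picked after the Dis3 sequence and a ranking of 6-mers had been seen, so its frequency is no independent support. It was found within 50 bp in 25.6% of the 234 peaks of the top signal decile near a start, 10.1% of all 2338 and 5.20% of the failing candidates. Within 100 bp, Rrp42 also had 1 match and Dis3 a further one, while Csl4 and Ski6 had none. The shares within 100 bp were 32.1% of the top decile, 16.9% of all peaks near a start and 10.5% of the failing candidates. The Dis3 match was known when the pattern was picked. Whether TGTGAA follows the signal of the 4 exosome peaks was not tested.

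Csl4 had TATAAA within 50 bp of its summit, as did 21.0% of the peaks near a start and 7.94% of the failing candidates, and the Ski6 window had the pattern CANCNCTA, as did 6.67% and 3.35%. The other patterns sought were GGTCACACT for the promoter factor M1BP, the E-box sequences CACGTG and CAGCTG, the GAGA factor repeat GAGAG with its longer form GAGAGAGA, TTGGCGC for E2F, CAGGTAG for Zelda and the initiator core TCAGT. Of these only TCAGT was found within 50 bp of an exosome peak, at Rrp42 with 2 matches, and it was found in 15.6% of the peaks near a start and 18.0% of the failing candidates. Among the weak candidates, TATAAA was found at Rrp46 with 2 matches, CANCNCTA at Rrp6 with 1 match and GAGAG at Rrp4 with 1 match.

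The same patterns were counted over whole intervals between head-to-head starts. For starts 100 to 300 bp apart, CGATA was found in 59.5% of 407 intervals where either gene had a combined peak and in 52.0% of 494 where neither did. TGTGAA was found in 18.7% and 11.3% of them, TATAAA in 40.5% and 39.7%, and TATCGATA in 17.7% and 12.1%. The intervals of Rrp42 and Ski6 held CGATA, those of Rrp42 and Dis3 held TGTGAA, and that of Csl4 held TATAAA. The TATCGATA near the Rrp42 summit reaches the start base of Rrp42, which the interval leaves out. Only 1 of the 3 CGATA matches near that summit therefore lay in the interval. Among the exosome genes without a combined peak, the interval between Rrp40 and Eno held none of the 4 patterns and that of Rrp6 held 1 TATAAA. Outside this range of lengths, the interval of Rrp4 held 1 CGATA, and that of Rrp46 held 6 CGATA, 3 TATAAA and 1 TATCGATA. The patterns thus stood in intervals with and without a combined peak.

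Other genes of RNA decay were set beside the exosome genes. A combined peak was present at 4 of 10 exosome genes, at 21 of 43 other decay genes in 4 lists (48.8%) and at 21.4% of all protein-coding genes. The list of exosome cofactors, which also holds the ring gene Rrp45, had a peak in 7 of 16 cases (43.8%). The highest signals were 1014 at HBS1, for a ribosome rescue factor, 746 at Rrp47, for the partner of Rrp6, and 725 at tst, for the helicase of the Ski complex that feeds the cytoplasmic exosome. Rrp45, which was not among the 10, had no peak in any thresholded list, and neither had the nuclease gene Dis3l2.

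Decapping and 5′ to 3′ decay genes had a combined peak in 4 of 10 cases, with signals of 433 at the helicase gene me31B, 249 at LSm1 of the Lsm ring and 209 at tral. Deadenylation genes had one in 5 of 11 (45.5%), led by Not3 (674) of the CCR4-NOT complex, PAN3 (624), for the adaptor of the PAN2 deadenylase, and Pop2 (159), for a deadenylase. Nonsense-mediated decay genes had one in 5 of the 6 found in the annotation (83.3%), with signals of 582 at Smg5, 479 at Upf2 and 102 at nonC, the fly Smg1 kinase gene. Rrp42 at 3739 and Dis3 at 1065 both stood above the strongest gene of these 4 lists, HBS1 at 1014. Head-to-head partners were present for 28 of the 43 genes. A combined peak was present at 12 of these 28, against 41.6% of all head-to-head protein-coding genes. The other 9 of the 21 decay genes with a peak were among the rest of the 43, which had no such partner. Of all protein-coding genes without such a partner, 1397 of 10130 (13.8%) had a combined peak. Whether the decay genes differ from the background in either class was not tested.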

How the data were processed

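Per the notes deposited with the samples, the authors called peaks on dm6 against a control, in either replicate and jointly, and ranked them by irreproducible discovery rate (IDR). Neither aligner nor peak caller is named in the sources used here. As deposited by the authors, the signal is the peak caller's own value, and how it was scaled from list to list is not stated. The deposited score is the IDR score, capped by construction, and the lowest score in the thresholded lists, 830, corresponds to an IDR of 0.01. The thresholded lists also rest on 1 further file of unstated kind. Of the joint ranked lists, 16 columns matched no sample by name and stayed out. The lists hold no counts, so depth is unknown.

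Summits were assigned to every protein-coding gene with a start within 500 bp in the Ensembl annotation, release 115, on the 6 chromosome arms (Python 3.11.15, pandas 2.3.3, numpy 2.4.6). Coordinates count from 1. The assignment was tested on simulated data. The members, lists and patterns were chosen with earlier results of these data known. TGTGAA, the head-to-head split, its spacing bins, the 100 to 300 bp intervals and matching of symbols regardless of case were chosen after the values were seen. Named genes were all 10 members, genes that start within 500 bp of a peak or best candidate of a member, and up to 3 genes with the highest combined signal of each other decay list. The partners of Rrp4 and Rrp40, genes at the nearest peaks of members without a peak, Rrp45 and Dis3l2 were named after their values were seen. No statistical test was made. Alternatives were the conservative and single-replicate lists, windows of 200 and 1000 bp, peaks above the median signal, the nearest start only, all protein-coding genes, and 100 bp around summits.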

Additional observations from a re-analysis of the deposited data

How the results depend on the processing

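The count of 4 exosome genes with a combined peak was 5 in the conservative list, 4 in each single-replicate list, 3 among peaks above the median signal, 4 with a window of 200 bp and 5 with one of 1000 bp, which takes in Rrp40. With the nearest start only it was 2, because the Csl4 and Ski6 peaks then counted for their partners. Leaving out replicate 1 or replicate 2 gave 4 exosome genes each time, though with Ski6 in replicate 2 and Rrp6 in replicate 1. The background share of 28.8% moved to 19.1% among peaks above the median signal and was 23.1 to 24.1% with 1 replicate left out. It was 31.5% of 7063 genes with a candidate within 200 bp and 28.7% of 11874 within 1000 bp. In the conservative list it was 28.1%, and with the nearest start only it was 21.3%. The other decay genes with a peak, 21, numbered 13 above the median signal and 15 to 18 with 1 replicate left out. Exosome peaks with CGATA near the summit numbered 1 within 50 bp and 3 within 100 bp. No paired analysis was possible because the samples form 1 group. Depth is unknown, so the lists cannot show how weak a signal would have been missed at Rrp4, Rrp40, Rrp46, Mtr3, Rrp6 and Mtr4. Each replicate left out also changes the scale of the signal, since combined signals are near the sum of the replicate signals.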
